A study of Mus musculus with 12 samples.

Results

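The MYC network is a set of basic helix-loop-helix leucine zipper transcription factors, and the 9 genes described here are Myc, Mycn, Max, Mxd1, Mxd4, Mxi1, Mnt, Mga and Mlx. They were taken by gene name from the deposited expression table, in which all 9 were found once among 54345 genes. All 9 were among the 25044 genes that had a value above 0 in at least 3 libraries and were therefore tested. Mycn met that minimum exactly, with reads in 3 of the 12 libraries.

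H9c2(2-1) cells were left untreated (Unt) or exposed to doxorubicin (DOX), an anthracycline chemodrug, to DOX with dexrazoxane (D_DXZ), an approved cardioprotective agent that yields an iron chelator, or to DOX with magnesium hexacyanoferrate nanocatalysts (D_MgHCF). Each of the 4 groups held 3 poly(A) RNA libraries collected after 6 h. All cells were WT, and the 3 treated groups shared the DOX exposure. The labels give the organism as Mus musculus and the cell type as myoblast, whereas the methods describe rat cardiomyoblasts, and the values were assigned to mouse genes. The labels do not say whether the 3 libraries of a group came from separate cultures, so the p-values measure the spread between these libraries, which may be technical.

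MYC and its relative MYCN act as heterodimers with MAX at E-boxes, whose core is CACGTG, and there raise genes of ribosome production, nucleotide synthesis, glycolysis and the cell cycle. The MXD proteins (from Mxd1, Mxd3, Mxd4 and Mxi1) and MNT compete for MAX and for the same sites and bring SIN3 and histone deacetylase corepressors, while MGA joins MAX to a polycomb complex. MLX is a MAX-like partner of MLXIP (MondoA) and MLXIPL (ChREBP), which respond to glucose metabolites, and it also pairs with some MXD proteins and MNT.

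Each library held between 16626514 and 19365119 reads assigned to genes, and the groups overlapped closely in depth. Mitochondrial genes took 1.19% to 1.41% of these reads in Unt but 2.73% to 2.89% with DOX alone and 2.73% to 3.27% with DXZ added. The D_MgHCF libraries were at 1.76% to 3.16%, lowest in replicate 3. Rn7sk, a nuclear RNA without a poly(A) tail, took 6.77e-05% to 0.000154% in Unt and 0.000113% to 0.000271% in D_MgHCF, but 0.0297% to 0.0600% in DOX and 0.0212% to 0.0403% in D_DXZ. Both shares moved with the groups, and their part in the differences below was not tested. The D_MgHCF libraries resembled each other least, with Pearson correlations of log2(FPKM + 1) of 0.984 for replicates 1 and 2, 0.942 for 1 and 3 and 0.964 for 2 and 3, against 0.9895 to 0.9953 within the other groups. D_MgHCF replicate 3 therefore stood apart, and the calls on the network genes and the counts of the gene lists in this group are given with and without it. Of 10 myoblast and muscle markers, 8 stayed under 1 FPKM in every library, among them Myod1, Myf5 and Myog, so the labelled cell type was not visible in its defining genes. The 10 together reached 1.67 to 1.82 FPKM in Unt. In the treated groups they reached 1.95 to 2.49 (DOX), 2.68 to 3.10 (D_DXZ) and 2.35 to 5.29 (D_MgHCF). Of 5 cardiac markers, Gata4 alone passed 1 FPKM, and markers of blood, epithelial, endothelial and liver cells (6 genes) summed to at most 2.07 FPKM. Gata4 was at 10.3 FPKM in Unt, 3.35 in DOX, 2.93 in D_DXZ and 19.2 in D_MgHCF. It was called lower than in Unt in DOX and D_DXZ and higher than in Unt and DOX in D_MgHCF. The 5 mesenchymal markers together reached 518 to 628 FPKM in Unt and 329 to 650 in D_MgHCF, against 2461 to 3303 with DOX alone and 1992 to 2693 with DXZ added. Tagln stayed under 1 FPKM in every library, so these sums come from Vim, Acta2, Col1a1 and Col3a1. All 5 were called higher in DOX than in Unt and all 5 lower in D_MgHCF than in DOX, Tagln on 1 to 9 reads a library. Whether this shift or that of Gata4 has a part in the differences below was not tested.

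E-box cores lay in the promoters of some members. RefSeq promoter windows (GRCm38.p6, 250 bases before to 50 bases after the start) were at hand for 8 of the 9 members, and the palindromic CACGTG, which reads alike on both strands, was found in 4 of these 8, namely Max, Mxd4, Mnt and Mlx. It was found in 7.15% of all 32851 windows. That share is counted by window, whereas the members are counted by gene, and a gene can have several windows (Mxi1 had 3). Mycn, Mxd1, Mxi1 and Mga had no such hexamer in their windows, and Myc had no entry. The 4 matches are shown because they show the binding letters of the network at the starts of its own genes, with the E-box in capitals and each stretch written on the strand of its gene.
Max, chr12:76962246-76962275, minus strand: ctaccccggcgcggtgagcccggtCACGTG
Mxd4, chr5:34187912-34187941, minus strand: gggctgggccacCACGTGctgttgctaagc
Mnt, chr11:74830789-74830818, plus strand: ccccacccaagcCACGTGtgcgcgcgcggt
Mlx, chr11:101087238-101087267, plus strand: ggtgggttggatCACGTGactgagcctcgc
The first base of the hexamer lay 3 bases upstream of the RefSeq start in Max, 40 in Mlx, 123 in Mnt and 219 in Mxd4, so that of Max spans the start. These are matches of letters, and binding was not measured in these libraries. In DOX against Unt, Max and Mnt were called lower and Mxd4 and Mlx were not called as deposited. All 4 were called lower under TPM, as were 7 of the 9 members in all, among them Mxi1 without the hexamer. The median log2 fold change over genes with at least 1 FPKM was then −0.99. As deposited 19.9% of all genes were called lower, and the share under TPM is not given here.

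Levels are given as FPKM, the authors' count of fragments per kilobase of a gene's length after library scaling. This puts different genes on a per-length footing, but the lengths are those of mouse genes, while the methods describe rat cells. Whether reads were assigned equally well to each gene was not tested, so orders and ratios of different genes hold for the values as deposited. In Unt, Myc was the most abundant member at 68.7 ± 5.16 FPKM (mean ± SD, n = 3 here and for every group mean below), followed by Max at 14.6 ± 0.768, Mlx at 10.3 ± 1.02, Mxd4 at 9.52 ± 0.445, Mxi1 at 8.60 ± 0.509, Mga at 5.51 ± 0.941, Mnt at 5.01 ± 0.209 and Mxd1 at 1.82 ± 0.0972. The ranges of Mlx, Mxd4 and Mxi1 touched each other, as did those of Mga and Mnt. In DOX this order changed: Mxd4 (13.3 ± 0.103 FPKM), Mxi1 (11.0 ± 0.427) and Mlx (9.50 ± 0.225) lay above Myc (5.55 ± 1.74), and Max (3.43 ± 0.749) lay near Mnt (3.23 ± 0.343).

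Mycn, the MYC paralogue of neural and embryonic tissue, was at the limit of detection in these cells. It had 0 reads in 9 libraries, and 1 read in an Unt library, 1 in a DOX library and 3 in a D_DXZ library, which made 5 reads in all. A count of 0 allows up to 3 reads, or 0.0358 to 0.0787 FPKM depending on the library, and no library exceeded this limit, so no fold change is given. Its paralogue Mycl had 1 to 11 reads in the 9 other libraries and 24 to 120 in the D_MgHCF libraries.

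**Figure D1:**
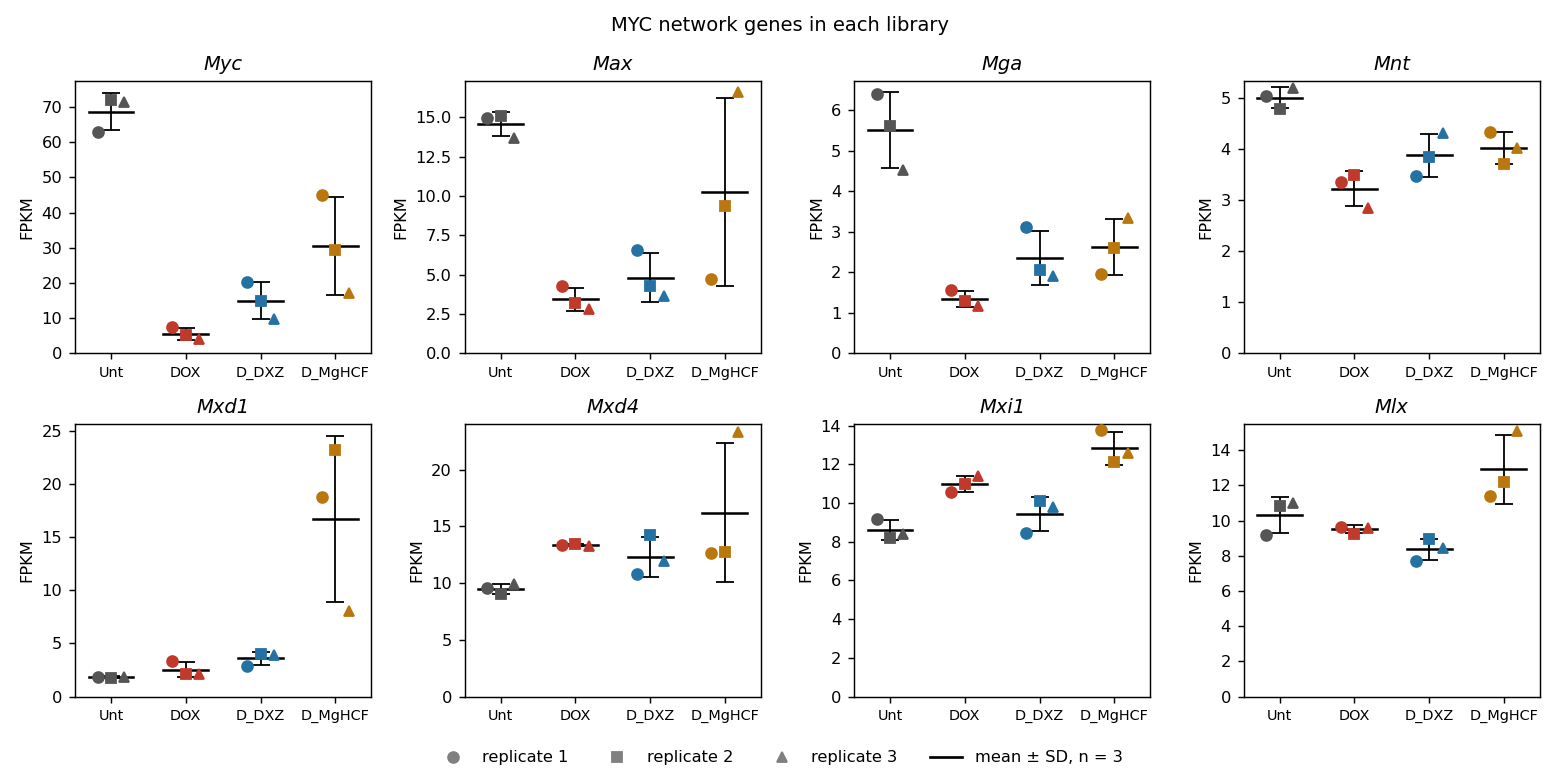
FPKM (vertical axes, from 0) of 8 MYC network genes in the 12 libraries, by treatment group, with replicates as symbols, the mean as a line and the SD as a bar (n = 3). Myc fell from 62.8 to 72.1 FPKM in Unt to 3.98 to 7.42 in DOX, and Mxd1 was at 8.08 to 23.2 in D_MgHCF against at most 4.04 elsewhere.

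The first comparison asks what 6 h of DOX did to the network. Log2 fold changes (log2FC) are differences of log2(FPKM + 1), which makes them smaller than the ratio of means for low genes, and a gene was called at a Benjamini-Hochberg adjusted p under 0.05 over all 25044 genes from limma's moderated test. In DOX as deposited, Myc and its partner Max were called lower together with Mga and Mnt, and Mxi1 higher, that is 4 members lower and 1 higher of 9. Mxi1 was instead called lower under TPM and with FPKM over the summed reads. Over all genes tested 19.9% were called lower and 18.6% higher in this comparison. The members' counts were 7 lower and 0 higher under TPM and 6 and 0 with FPKM over the summed reads. Under these scalings the median log2FC over genes with at least 1 FPKM was −0.99 and −0.67. The shares of all genes called under them are not given here, so these counts cannot be set beside a share. In bulk samples, fewer cells that express a gene and less RNA of it per cell cannot be told apart.

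Myc (chr15:61985391-61990374, plus strand, GRCm38 as in the deposited table) measured 62.8, 72.1 and 71.3 FPKM in the 3 Unt libraries and 7.42, 5.25 and 3.98 in the 3 DOX libraries. Every DOX library lay far under every Unt library, and the mean was 12.4-fold lower (log2FC −3.44, SE 0.34, adjusted p = 2.7e-05 with limma). Max, the obligate partner (chr12:76937269-76962201, minus strand), measured 14.9, 15.1 and 13.7 FPKM in Unt and 4.27, 3.23 and 2.81 in DOX. Its groups did not overlap either, and its mean was 4.24-fold lower (log2FC −1.82, SE 0.34, adjusted p = 0.0014 with limma).

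Mga, the largest protein of the network and a MAX partner in repression (chr2:119897228-119969581, plus strand), measured 6.40, 5.60 and 4.52 FPKM in Unt and 1.57, 1.28 and 1.17 in DOX. The mean fell 4.10-fold without overlap (log2FC −1.47, SE 0.19, adjusted p = 0.000132 with limma). Short stretches of 150 bases or more at 95% identity or above were shared by Mga transcripts with 39 other genes, so a part of its reads is uncertain. Mnt, the broadly expressed MAX-binding repressor (chr11:74830920-74845725, plus strand), measured 5.05, 4.78 and 5.19 FPKM in Unt and 3.36, 3.49 and 2.84 in DOX, which was 1.55-fold lower without overlap (log2FC −0.51, adjusted p = 0.00302 with limma). Under quantile normalization its log2FC was −0.08 and it was not called.

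Of the MXD repressors, which take MAX away from MYC, Mxi1 (chr19:53310506-53375810, plus strand) measured 9.17, 8.21 and 8.42 FPKM in Unt and 10.6, 11.0 and 11.4 in DOX. The difference was small, 1.28-fold, without overlap (log2FC 0.32, adjusted p = 0.0143 with limma), and its sign turned when libraries were scaled to equal sums. Mxi1 was then called lower with limma, at −0.92 as TPM (adjusted p = 3.3e-05) and −0.54 as FPKM over the summed reads (adjusted p = 0.000218). The call on Mxi1 as deposited was lost without DOX replicate 3 (adjusted p = 0.0555), Unt replicate 2 (adjusted p = 0.0624) or Unt replicate 3 (adjusted p = 0.0505). It was also lost with a 2-fold minimum and with voom on the recovered reads, which called 0 members higher. Mxd4 (chr5:34173883-34187720, minus strand) measured 9.57, 9.05 and 9.94 FPKM in Unt and 13.3, 13.5 and 13.2 in DOX, and Mxd1 (chr6:86647042-86669161, minus strand) 1.87, 1.71 and 1.88 against 3.33, 2.15 and 2.10. Neither pair of groups overlapped, yet neither was called (log2FC 0.45 with adjusted p = 0.105 for Mxd4 and 0.31 with adjusted p = 0.546 for Mxd1), and both signs turned under TPM and under FPKM over the summed reads. Mxd4 was called lower under TPM (adjusted p = 0.0245 with limma). Without D_MgHCF replicate 3, which enters the shared estimate of spread, Mxd4 was called higher (adjusted p = 0.00225 with limma).

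Mlx (chr11:101087277-101092207, plus strand) measured 9.17, 10.8 and 11.0 FPKM in Unt and 9.66, 9.24 and 9.60 in DOX, with overlapping groups and no call (log2FC −0.11, adjusted p = 0.562). It was called lower under TPM (log2FC −1.34, adjusted p = 8.63e-05) and with FPKM over the summed reads (log2FC −0.96, adjusted p = 0.000175), where the median over genes with at least 1 FPKM was below 0 as well. Mlx shares 385 bases with Psmc3ip on the opposite strand, which reached 25.4 FPKM. Whether counting used strand is not given in the sources used here, so reads of these neighbours could not be told apart. Among the network genes outside the 9, Mlxip, the partner of MLX, was lower in DOX (4.24, 4.74 and 4.65 FPKM in Unt against 3.44, 2.30 and 1.88, log2FC −0.67, adjusted p = 0.0123), a call lost without DOX replicate 3 (adjusted p = 0.0535).

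Scaling mattered for this comparison because the deposited FPKM already held a factor that set the medians of the libraries equal. Relative to plain read totals this factor was 1.31 to 1.37 in Unt and 1.25 to 1.42 in D_MgHCF, but 0.642 to 0.778 in DOX and 0.742 to 0.885 in D_DXZ. Over genes with at least 1 FPKM the median log2FC of DOX against Unt was 0.02 as deposited, −0.67 over the summed reads and −0.99 as TPM. Myc, Max and Mga were called lower in DOX than in Unt under the deposited scaling, TPM, FPKM over the summed reads, quantile normalization and voom on the recovered reads, with log2FC from −4.66 to −3.44 for Myc, −2.96 to −1.71 for Max and −2.41 to −1.04 for Mga. Each of these values also lay below the median of all genes under its own scaling.

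**Figure D2:**
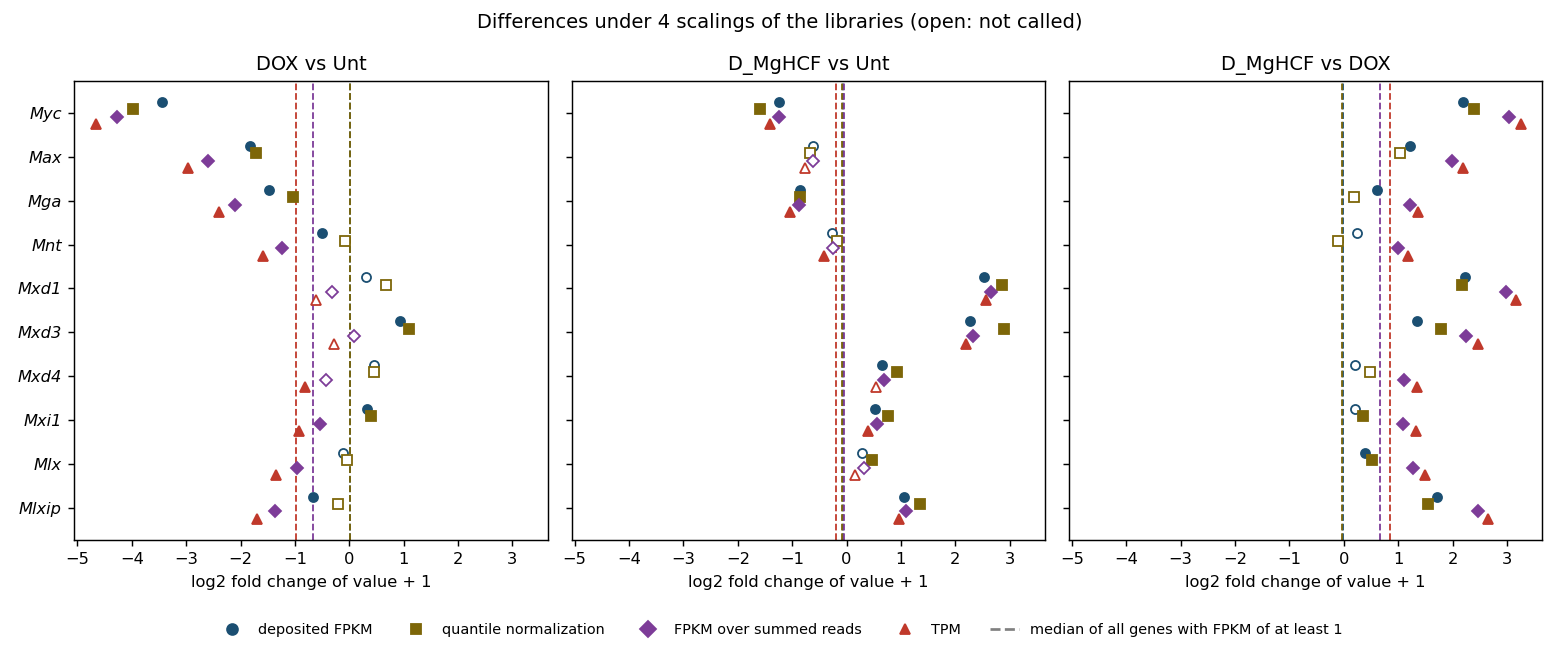
Log2 fold changes of value + 1 (horizontal axes) of 10 network genes under 4 scalings of the libraries, in 3 comparisons, with filled symbols for genes called and a dashed line for the median over genes with at least 1 FPKM. Myc, Max and Mga lie left of 0 for DOX vs Unt under every scaling drawn, whereas Mxi1 goes from 0.32 as deposited to −0.92 as TPM.

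Dexrazoxane was added to DOX to ask whether the network stayed as in DOX or moved towards Unt. Against Unt, 3 members were called lower in D_DXZ, namely Myc, Max and Mga, and 0 higher. Over all genes tested 18% were called lower and 15.9% higher. Under quantile normalization Mga lost its call (log2FC −0.60, adjusted p = 0.0529) and Mxi1 was called higher (log2FC 0.30, adjusted p = 0.0366), which made 2 lower and 1 higher. Myc measured 20.2, 14.9 and 9.67 FPKM in D_DXZ, 4.61-fold under Unt (log2FC −2.18, SE 0.34, adjusted p = 0.00063 with limma). Max measured 6.56, 4.26 and 3.62 FPKM (log2FC −1.45, adjusted p = 0.00686) and Mga 3.13, 2.04 and 1.90 (log2FC −0.96, adjusted p = 0.00264). None of these D_DXZ libraries reached the lowest Unt library.

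The other members of D_DXZ were not called against Unt as deposited. Mxd1 measured 2.86, 4.04 and 3.90 FPKM (log2FC 0.70, adjusted p = 0.117), Mxd4 10.8, 14.3 and 12.0 (log2FC 0.33, adjusted p = 0.251) and Mxi1 8.43, 10.1 and 9.79 (log2FC 0.12, adjusted p = 0.388). All 3 signs turned under TPM, where Mxd4 (adjusted p = 0.0335 with limma) and Mxi1 (adjusted p = 4.06e-05) were called lower. Mnt measured 3.48, 3.84 and 4.32 FPKM (log2FC −0.30, adjusted p = 0.0528), all under the lowest Unt library. It was called lower in 9 of 23 alternatives, among them TPM (log2FC −1.28, adjusted p = 2.94e-05) and FPKM over the summed reads (log2FC −0.92, adjusted p = 0.000107), and its sign turned under quantile normalization alone (log2FC 0.05, adjusted p = 0.810). Mlx measured 7.72, 8.93 and 8.43 FPKM (log2FC −0.27, adjusted p = 0.0865). Without D_MgHCF replicate 3 the shared spread shrank and the number of members called between D_DXZ and Unt went from 3 to 7, since Mxd1, Mxd4, Mnt and Mlx were then called too.

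Between D_DXZ and DOX limma called 0 members, and over all genes tested 0% were called higher and 0% lower. At an unadjusted p under 0.05, 3 members differed, with Myc and Mga higher and Mxi1 lower in D_DXZ, beside 4.56% of all genes higher and 4.97% lower, and voom on the recovered reads also called 0 members. Myc was at 9.67 to 20.2 FPKM in D_DXZ against 3.98 to 7.42 in DOX, so its groups did not overlap, and the mean ratio was 2.69 (log2FC 1.26, SE 0.34, unadjusted p = 0.00393, adjusted p = 0.318 with limma). Mga was at 1.90 to 3.13 FPKM against 1.17 to 1.57, again without overlap (log2FC 0.51, adjusted p = 0.468). Max was at 3.62 to 6.56 FPKM against 2.81 to 4.27 with overlapping groups (log2FC 0.37, adjusted p = 0.789). With 3 libraries a group, these values do not show that the network was alike in D_DXZ and DOX.

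MgHCF was the other agent added to DOX. Against Unt, Mxd1, Mxd4 and Mxi1 were called higher in D_MgHCF and Myc and Mga lower, 3 members up and 2 down of 9. Over all genes tested 24.3% were called higher and 15.7% lower. The members' counts were 2 higher and 3 lower under TPM, where Mxd4 lost its call and Mnt gained it. The median log2FC over genes with at least 1 FPKM was then −0.20, and the share of all genes called under TPM is not given here.

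Mxd1, known as an antagonist of MYC that appears in differentiating cells, measured 18.8, 23.2 and 8.08 FPKM in D_MgHCF. The lowest of these was above the highest value of any other group, 4.04 FPKM in D_DXZ. Its mean of 16.7 ± 7.77 FPKM was 9.18-fold that of Unt (log2FC 2.53, SE 0.31, adjusted p = 0.000204 with limma), 6.61-fold that of DOX (log2FC 2.23, adjusted p = 0.000177) and 4.64-fold that of D_DXZ (log2FC 1.84, adjusted p = 0.000727). Without D_MgHCF replicate 3, the library with the lowest Mxd1 of its group, the log2FC was 2.96 against Unt, 2.65 against DOX and 2.26 against D_DXZ, each called. Under the 5 scalings the log2FC against Unt was between 2.53 and 3.06 and was called each time.

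Mxd4 measured 12.6, 12.8 and 23.3 FPKM in D_MgHCF, with replicate 3 well above the other two. Against Unt it was called higher (log2FC 0.66, SE 0.20, adjusted p = 0.0234 with limma), and without replicate 3 the log2FC was 0.38 (adjusted p = 0.0101). The call was lost without Unt replicate 1 (adjusted p = 0.0599), Unt replicate 2 (adjusted p = 0.0705) or Unt replicate 3 (adjusted p = 0.0516), and under TPM (log2FC 0.53, adjusted p = 0.109). Mxi1 measured 13.8, 12.1 and 12.6 FPKM in D_MgHCF, above every library of the other groups (log2FC against Unt 0.52, SE 0.09, adjusted p = 0.00125 with limma). Without replicate 3 Mxi1 was at a log2FC of 0.54 against Unt (adjusted p = 0.00104) and 0.42 against D_DXZ (adjusted p = 0.00376).

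Mxd3, the MXD gene tied to S phase and the member of this family outside the 9, measured 24.1, 29.7 and 37.8 FPKM in D_MgHCF against 5.05, 5.44 and 5.82 in Unt (log2FC 2.27, SE 0.18, adjusted p = 2.48e-05 with limma). In DOX it was at 12.6, 11.3 and 9.93 FPKM (log2FC against Unt 0.93, adjusted p = 0.00179), a difference whose sign turned to −0.28 under TPM. Mxd3 overlaps Prelid1 on the opposite strand, which reached 393 FPKM, so its reads are uncertain to that extent. All 4 network genes outside the 9 were called higher in D_MgHCF than in Unt, Mxd3, Mlxip (11.2, 12.7 and 8.07 FPKM, log2FC 1.05, adjusted p = 0.00137), Mycl (log2FC 0.70) and Mlxipl (log2FC 0.12), the last on 4 to 17 reads a library and lost without any 1 of 5 libraries. All 4 were also called without D_MgHCF replicate 3, at a log2FC of 2.11 for Mxd3, 1.22 for Mlxip, 0.93 for Mycl and 0.17 for Mlxipl.

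Myc measured 44.9, 29.5 and 17.1 FPKM in D_MgHCF, between DOX and Unt in every library. It was 2.25-fold under Unt (log2FC −1.24, SE 0.34, adjusted p = 0.0157 with limma) and 5.50-fold above DOX (log2FC 2.20, SE 0.34, adjusted p = 0.000359). Without D_MgHCF replicate 3 these log2FC were −0.90 (adjusted p = 0.0324) and 2.55 (adjusted p = 7.36e-05). Against D_DXZ, Myc was higher in D_MgHCF by a log2FC of 0.94 (adjusted p = 0.0422 with limma), yet the groups overlapped, and the call was lost in 11 of 23 alternatives. Leaving out Unt replicate 1, 2 or 3, DOX replicate 2, D_DXZ replicate 2 or 3 or D_MgHCF replicate 1 or 2 lost it, with adjusted p from 0.0566 to 0.153, whereas without D_MgHCF replicate 3 the log2FC was 1.29 (adjusted p = 0.00507).

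Max measured 4.75, 9.39 and 16.6 FPKM in D_MgHCF, and the library with the most Max had the least Myc. Its range spanned from just above DOX to above Unt. Against DOX it was called higher (log2FC 1.21, adjusted p = 0.0131 with limma), and against Unt the groups overlapped (log2FC −0.61, adjusted p = 0.178). Without D_MgHCF replicate 3, Max was at a log2FC of −1.01 against Unt and called lower (adjusted p = 0.0112), and at 0.81 against DOX (adjusted p = 0.0261).

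Mga measured 1.96, 2.59 and 3.35 FPKM in D_MgHCF, lower than in Unt (log2FC −0.85, adjusted p = 0.00616 with limma) and higher than in DOX (log2FC 0.62, adjusted p = 0.0202). The latter call was lost without DOX replicate 2 (adjusted p = 0.0562), DOX replicate 3 (adjusted p = 0.066) or D_MgHCF replicate 3 (adjusted p = 0.0513), and without the last the log2FC against Unt was −0.99 (adjusted p = 0.0018). Mnt measured 4.34, 3.70 and 4.02 FPKM, which lay between Unt and DOX without overlap on either side but was not called (log2FC −0.26 with adjusted p = 0.0786 against Unt and 0.25 with adjusted p = 0.0757 against DOX, the sign of the latter turning under quantile normalization). Mlx measured 11.4, 12.2 and 15.1 FPKM, higher than in DOX (log2FC 0.40, adjusted p = 0.0128) and in D_DXZ (log2FC 0.56, adjusted p = 0.00196) and not called against Unt (log2FC 0.29, adjusted p = 0.0613). Mlx without D_MgHCF replicate 3 was at 0.29 against DOX (adjusted p = 0.0226), 0.45 against D_DXZ (adjusted p = 0.00215) and 0.18 against Unt (adjusted p = 0.134), and Mnt was again not called (log2FC −0.26 against Unt and 0.25 against DOX).

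Counted together, D_MgHCF against DOX gave 5 members higher (Myc, Max, Mxd1, Mga and Mlx) and 0 lower, beside 31.4% of all genes higher and 20.1% lower. At an unadjusted p under 0.05 the members numbered 7 higher and 0 lower. D_MgHCF against D_DXZ gave 4 higher (Myc, Mxd1, Mxi1 and Mlx) and 0 lower, beside 29.4% and 19% of all genes, and at an unadjusted p under 0.05 it gave 5 and 0. The members called without D_MgHCF replicate 3 were 3 higher and 3 lower against Unt, 4 and 0 against DOX and 4 and 0 against D_DXZ. Shares of all genes at an unadjusted p in these comparisons, or without D_MgHCF replicate 3, are not given here. The comparisons share libraries, so their counts are not independent of each other.

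**Figure D3:**
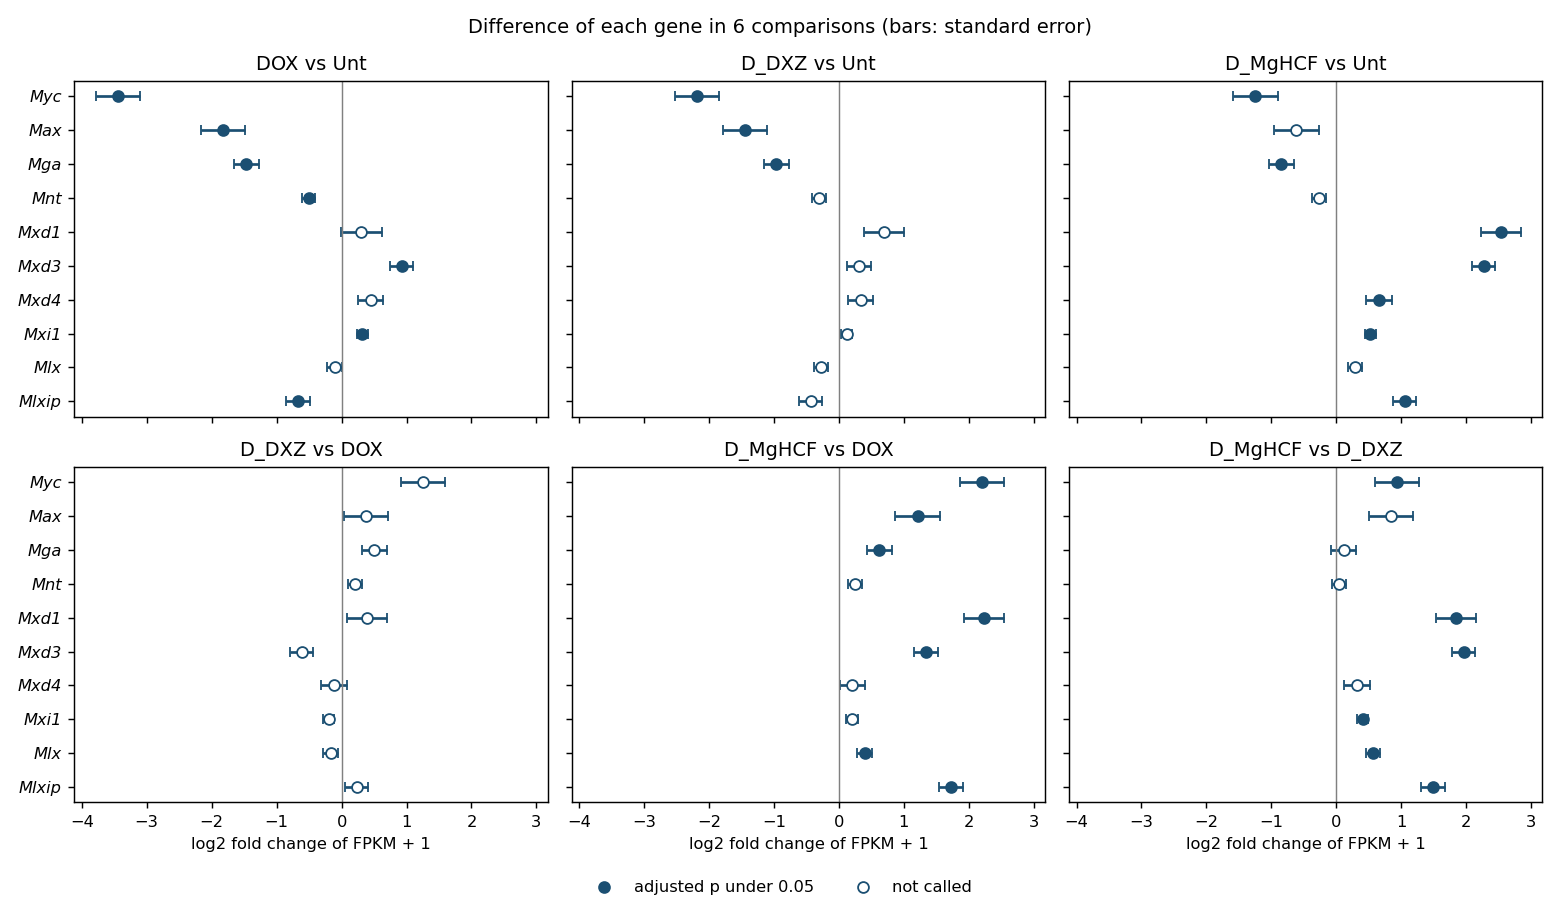
Log2 fold changes of FPKM + 1 (horizontal axes) with standard errors for 10 network genes in 6 comparisons, filled where the adjusted p was under 0.05 and open where it was not. Myc, Max and Mga are filled and left of 0 for DOX vs Unt and D_DXZ vs Unt, no symbol is filled for D_DXZ vs DOX, and Mxd1 and Mxd3 lie furthest right for D_MgHCF vs Unt at 2.53 and 2.27.

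Ordered by group means, Myc went from Unt (68.7 FPKM) to D_MgHCF (30.5 ± 13.9), D_DXZ (14.9 ± 5.25) and DOX (5.55), where D_DXZ and DOX did not differ by the test and D_MgHCF and D_DXZ overlapped. Max went in the same order, from 14.6 to 10.3 ± 5.98, 4.81 ± 1.54 and 3.43 FPKM, and no neighbours in its order were called apart as deposited. D_MgHCF was called above D_DXZ in 7 of 23 alternatives, and below Unt without D_MgHCF replicate 3. Mga also followed this order, from 5.51 to 2.63 ± 0.694, 2.36 ± 0.668 and 1.34 ± 0.207 FPKM, and Unt was called apart from each of the others as deposited, though not from D_DXZ under quantile normalization. Mxd1 went from D_MgHCF (16.7 FPKM) to D_DXZ (3.60 ± 0.640), DOX (2.53 ± 0.693) and Unt (1.82), and D_DXZ, DOX and Unt were not called apart as deposited. D_DXZ was called above Unt in 4 of 23 alternatives.

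A ratio of genes within a library does not depend on how the library is scaled, whereas a sum does. Both depend on how well reads were assigned to each gene, which was not tested. The level of Myc relative to Max was 4.73 ± 0.505 in Unt, 1.59 ± 0.165 in DOX and 3.08 ± 0.414 in D_DXZ, and no library of these groups overlapped with another group's. In D_MgHCF it was 9.45, 3.14 and 1.03, a spread that covered all the other groups. The 4 MXD genes summed to 25.4 ± 0.862 FPKM in Unt, 38.1 ± 1.59 in DOX, 32.5 ± 4.80 in D_DXZ and 76.3 ± 6.39 in D_MgHCF. Myc relative to that sum was 2.71 ± 0.254 in Unt, 0.144 ± 0.0392 in DOX, 0.475 ± 0.224 in D_DXZ and 0.412 ± 0.221 in D_MgHCF. Myc thus exceeded the summed MXD genes in the 3 Unt libraries and was below them in the 9 treated ones. In D_MgHCF, Mxd1 supplied 27.1%, 29.8% and 9.89% of the MXD sum, against 7.16% ± 0.151 in Unt.

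**Figure D4:**
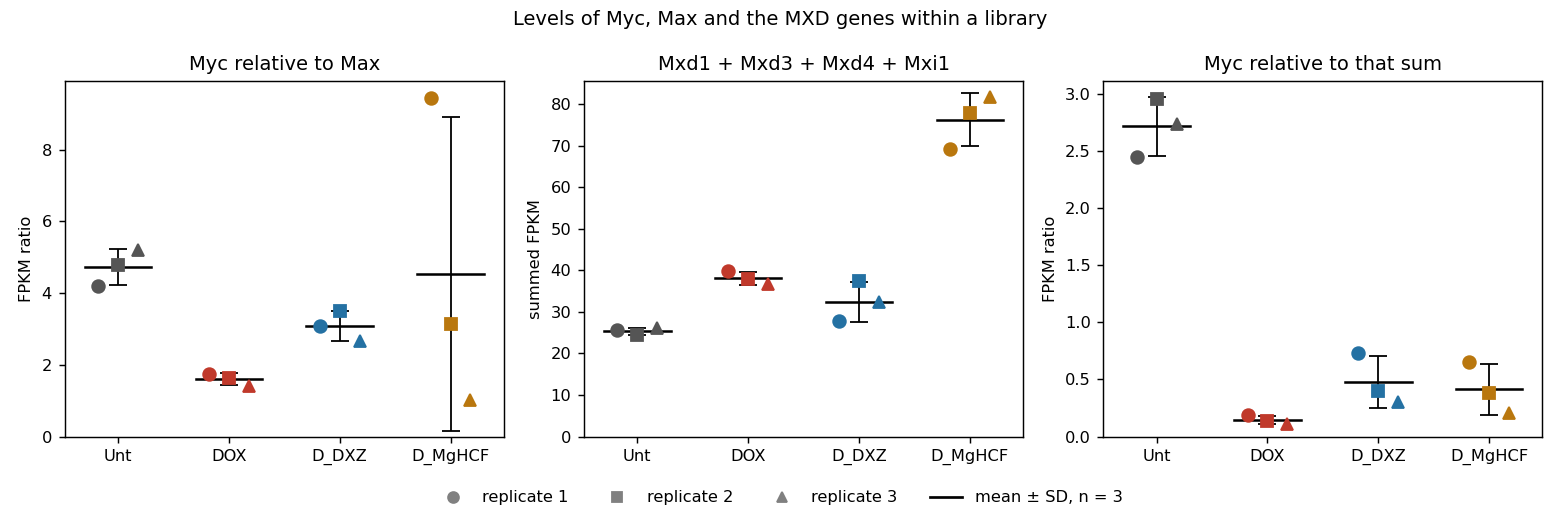
Level of Myc relative to Max, summed FPKM of Mxd1, Mxd3, Mxd4 and Mxi1, and level of Myc relative to that sum (vertical axes, from 0) in each library, with the mean and SD (n = 3). The Unt libraries are at 2.45 to 2.95 in the last panel and every treated library is at 0.728 or lower, while the D_MgHCF libraries spread from 1.03 to 9.45 in the first.

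Genes that MYC is known to raise were then read beside Myc itself, from a list of 61 of which 59 were tested. In DOX, where Myc fell, 38 of the 59 were called higher and 12 lower, beside 18.6% and 19.9% of all genes. The list's median log2FC was 0.78, against 0.00 over all genes. The counts were 11 and 35 under TPM and 18 and 23 over the summed reads, scalings that moved the median over genes with at least 1 FPKM, here called the shift, to −0.99 and −0.67. Relative to the shift the list's median was 0.75 as deposited, 0.41 under TPM and 0.50 over the summed reads. Under quantile normalization, which left the shift at 0.02, the counts were 9 and 21 and the list lay at −0.14 relative to it. Tfrc, the transferrin receptor (log2FC 3.14), Pkm, a pyruvate kinase (2.36), and Ccnd1, cyclin D1 (2.19), were called higher in DOX than in Unt and Ppan, a ribosome biogenesis factor (−2.34), lower. Ncl, nucleolin, rose from 69.6 to 243 FPKM (log2FC 1.79, adjusted p = 9.6e-05), and Odc1, the first enzyme of polyamine synthesis, was at 66.1 and 84.4 FPKM without a call (log2FC 0.34). Odc1 was called lower under TPM (log2FC −1.01, adjusted p = 0.011 with limma) and quantile normalization (log2FC −0.93, adjusted p = 0.0159). D_DXZ against Unt gave 34 higher and 11 lower (median 0.53), beside 15.9% and 18% of all genes. Tfrc (3.12), Pkm (2.05), Ldha, lactate dehydrogenase A (1.88), and Eif5a, a translation factor (1.86), were in front. Under TPM 9 were higher and 36 lower, while relative to the shift the list was at 0.57 as deposited and 0.40 under TPM. Under quantile normalization 7 were higher and 20 lower, at −0.12 relative to the shift.

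In D_MgHCF 42 of the 59 were called lower than in Unt and 6 higher (median log2FC −0.65, against 0.05 over all genes). Of all genes, 15.7% were called lower and 24.3% higher. Under the 5 scalings 42 to 45 of the 59 were lower. In this comparison Myc (log2FC −1.24) and Mga (−0.85) were called lower, and Mxd1, Mxd3, Mxd4 and Mxi1 higher. Their parts in the targets' levels were not tested and cannot be told apart here. Srm, spermidine synthase (log2FC −1.95), Nop58 (−1.85) and Dkc1 (−1.81), both of box snoRNA particles, were lower and Nme2, a nucleoside diphosphate kinase (1.82), was higher. Ncl (−0.89) and Odc1 (−0.72) were lower too. Against DOX, 42 were lower and 7 higher (median −1.33), led by Ccnd1 (−3.55), Tfrc (−3.45), Dkc1 (−3.13) and Ldha (−2.93), with 26 and 20 under TPM (−1.31 as deposited and −0.97 under TPM relative to the shift), and against D_DXZ 44 were lower and 6 higher (median −1.08), with 24 and 17 under TPM (−1.02 and −0.79). The targets called without D_MgHCF replicate 3 were 9 higher and 37 lower against Unt, 6 and 44 against DOX and 6 and 46 against D_DXZ, with medians of −0.52, −1.30 and −1.06, and Ncl (−0.61) and Odc1 (−0.95) remained lower than in Unt. Thus Myc was higher in D_MgHCF than in DOX while more of the listed targets were lower than higher under each scaling. As deposited, 20.1% of all genes were called lower and 31.4% higher in D_MgHCF than in DOX, and 19% and 29.4% than in D_DXZ. Between D_DXZ and DOX 0 of the 59 were called by limma, and 14 at an unadjusted p under 0.05. Of all genes, 4.56% were higher and 4.97% lower at that unadjusted p.

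Of 10 genes that MYC is known to lower, 4 were called lower and 0 higher in DOX than in Unt, namely Gadd45a, a growth arrest gene (log2FC −4.20), Cdkn2b, encoding p15 (−2.49), Cdkn1b, encoding p27 (−1.67), and Gas1 (−1.57). The same 4 were lower in D_DXZ than in Unt, and 0 were higher. The list's median log2FC was −0.08 in DOX and −0.54 in D_DXZ, and relative to the shift it was at −0.10 and −0.50. Under TPM 6 were lower in DOX, 7 lower in D_DXZ and 0 higher in either, at −0.32 and −0.69 relative to the shift. With voom on the recovered reads 2 were higher and 4 lower in DOX. Of all genes, 19.9% were called lower and 18.6% higher in DOX as deposited, and 18% and 15.9% in D_DXZ. Cdkn1a, encoding the cell cycle inhibitor p21, measured 8.31 ± 0.479 FPKM in Unt, 13.1 ± 9.36 in DOX, 4.31 ± 1.26 in D_DXZ and 81.2 ± 38.4 in D_MgHCF, and was called higher in D_MgHCF than in Unt (log2FC 3.04, adjusted p = 0.000442). Of all genes, 24.3% were called higher and 15.7% lower in D_MgHCF against Unt, 31.4% and 20.1% against DOX and 29.4% and 19% against D_DXZ. In D_MgHCF against Unt the list split into 3 higher and 4 lower, with Gadd45b higher (1.89) and Col1a2 (−2.44) and Gadd45a (−2.37) lower. Against DOX, D_MgHCF had 7 higher and 2 lower (median 1.31), with Cdkn1a (2.64), Gadd45b (2.20) and Gadd45a (1.83) among the higher and Col1a2 (−2.86) lower, and 8 higher and 1 lower under TPM. Against D_DXZ it had 4 higher and 1 lower, with Cdkn1a (3.88), Gadd45b (2.37) and Ndrg1 (1.48, in overlapping groups) higher and Col1a2 (−2.82) lower, and 8 higher and 1 lower under TPM. D_MgHCF replicate 3 had the most Cdkn1a of its group (124 FPKM against at most 69.4), and without it Cdkn1a was at a log2FC of 2.69 against Unt, 2.28 against DOX and 3.52 against D_DXZ, called each time, and the list's counts were as before, 3 higher and 4 lower, 7 and 2, and 4 and 1.

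**Figure D5:**
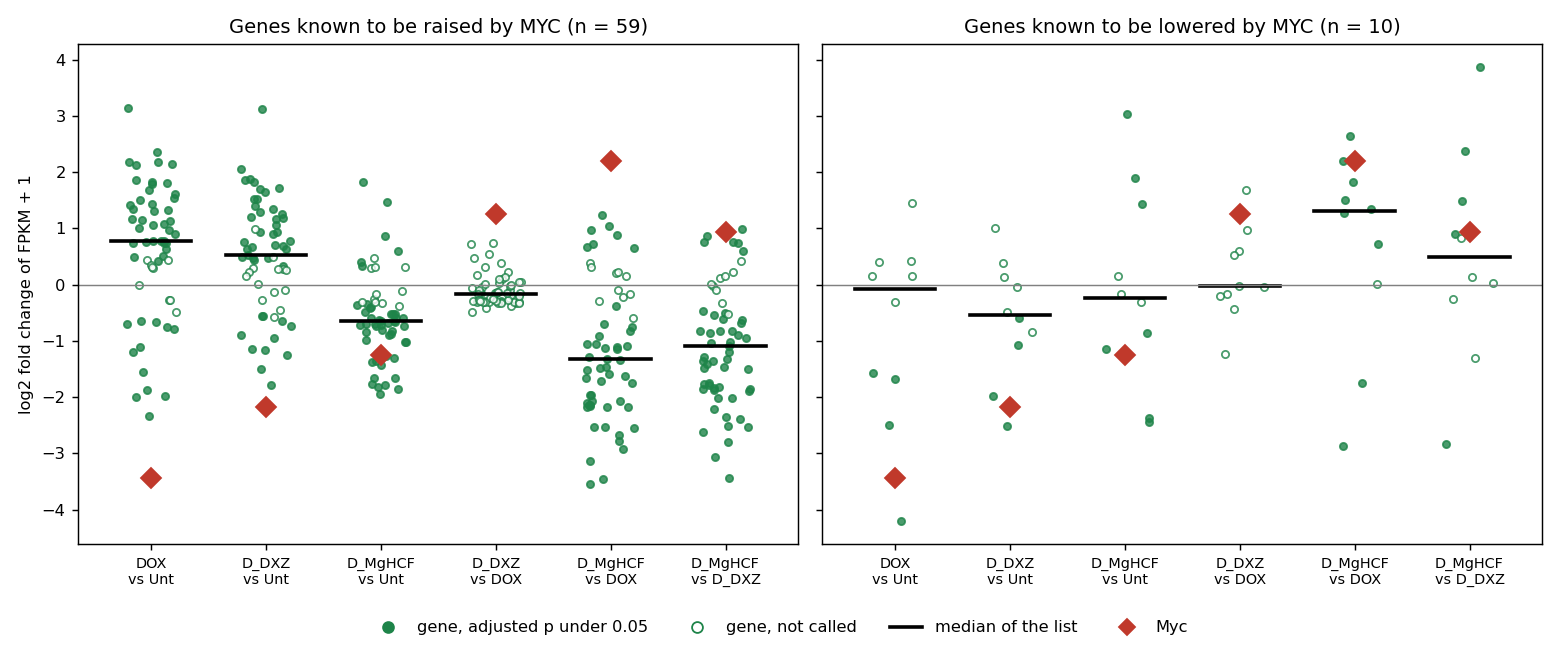
Log2 fold changes of FPKM + 1 (vertical axis) of 59 genes known to be raised by MYC and 10 known to be lowered by it, in 6 comparisons, with filled points for genes called, a bar for the list's median and a diamond for Myc. The median of the 59 is 0.78 for DOX vs Unt where Myc is at −3.44, and −1.33 for D_MgHCF vs DOX where Myc is at 2.20.

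Corepressors that MXD and MNT bring to DNA were taken as a list of 15. In DOX, 9 were called lower than in Unt and 5 higher, with Sin3a, the scaffold that MXD proteins bind, 5.46-fold lower (log2FC −2.15) and Sap30 4.49-fold lower (−1.94), while Hdac1, a histone deacetylase, was 3.87-fold higher (1.92). D_DXZ against Unt gave 6 lower and 5 higher, with Sap30 (−1.90) and Sin3a (−1.68) among the lower and Hdac1 (1.61) among the higher. Under TPM both comparisons had 11 lower and 1 higher, while relative to the shift the list was at −0.83 (DOX) and −0.54 (D_DXZ) as deposited and −0.64 and −0.46 under TPM. In D_MgHCF against Unt 5 were higher, led by Sin3b (1.04) and Sap18 (0.89), and 4 lower, led by Ncor1 (−1.15) and E2f6, which shares a complex with MGA (−0.99). Sap30 (2.42), Sin3a (2.24), Sap130 (1.77) and Arid4a (1.72) were higher in D_MgHCF than in DOX, among 6 higher and 4 lower, or 11 and 2 under TPM. With replicate 3 of D_MgHCF left out there were 5 higher and 5 lower against Unt and 6 and 5 against DOX. As deposited, 19.9% of all genes were called lower and 18.6% higher in DOX against Unt, and 18% and 15.9% in D_DXZ against Unt. In D_MgHCF these shares were 15.7% and 24.3% against Unt and 20.1% and 31.4% against DOX, and those under TPM are not given here.

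Of 13 genes listed as coactivators or other partners of MYC, 6 were lower and 4 higher in DOX than in Unt. Kat5, the TIP60 acetyltransferase (−1.96), was lower, and Ruvbl1, an ATPase of the TIP60 complex (1.28), and Actl6a, an actin-like subunit (1.07), higher. Under TPM 11 were lower and 0 higher, and relative to the shift the list was at −0.46 as deposited and −0.69 under TPM. D_DXZ gave 6 lower and 3 higher against Unt, with Kat5 (−1.46) and Zbtb17, encoding MIZ1 (−1.07), lower, and 12 lower and 0 higher under TPM. Relative to the shift the list was at −0.34 in D_DXZ as deposited and −0.58 under TPM. In D_MgHCF 7 were lower than in Unt and 0 higher, among them Smarcb1 of the SWI/SNF complex (−1.62) and Kat2a, the GCN5 acetyltransferase (−1.27). The list's median there was −0.62, or −0.55 relative to the shift. D_MgHCF against DOX gave 5 higher and 5 lower, the latter led by Kat2a (−1.68), Smarcb1 (−1.64), Ruvbl2 (−1.62) and Ruvbl1 (−1.52), or 8 higher and 4 lower under TPM, where the shift was 0.85. Leaving out D_MgHCF replicate 3 gave 9 lower and 0 higher against Unt and 6 and 5 against DOX. Shares of all genes called as deposited were 19.9% lower and 18.6% higher in DOX against Unt and 18% and 15.9% in D_DXZ against Unt. For D_MgHCF they were 15.7% and 24.3% against Unt and 20.1% and 31.4% against DOX, and those under TPM are not given here.

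Regulators of MYC protein stability formed a list of 14, of which 13 were tested. In DOX 9 were lower than in Unt and 2 higher, among them Axin1 (−2.50) and Gsk3b (−2.36), which act in the phosphorylation that marks MYC for decay, Plk1 (−2.38) and the ubiquitin ligase subunit Fbxl14 (−2.29). The same 4 led the 7 that were lower in D_DXZ than in Unt (−1.98 to −1.63), beside 2 higher. Under TPM 13 were lower in DOX, 12 lower in D_DXZ and 0 higher in either, and relative to the shift the list was at −1.03 (DOX) and −0.74 (D_DXZ) as deposited and −0.82 and −0.74 under TPM. D_MgHCF against Unt gave 5 lower, led by Huwe1 (−1.11) and Axin1 (−0.87), and 1 higher, and against DOX 8 higher, led by Plk1 (2.22), and 3 lower. Under TPM these were 5 lower and 0 higher against Unt and 11 higher and 0 lower against DOX. They were, without D_MgHCF replicate 3, 5 lower and 2 higher against Unt and 8 higher and 4 lower against DOX. Among all genes, 19.9% were called lower and 18.6% higher in DOX than in Unt as deposited, and 18% and 15.9% in D_DXZ. For D_MgHCF these shares were 15.7% and 24.3% against Unt and 20.1% and 31.4% against DOX, and those under TPM are not given here. Protein levels were not measured in these libraries.

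Txnip, a gene raised by MLX with MLXIP, stood for that branch, since Arrdc4 had reads in too few libraries to be tested. Txnip was at 13.7 ± 1.59 FPKM in Unt, 3.11 ± 1.89 in DOX, 2.64 ± 0.833 in D_DXZ and 22.8 ± 3.21 in D_MgHCF. It was called lower in DOX (log2FC −1.94, adjusted p = 0.000431) and D_DXZ (−2.03, adjusted p = 0.000503) than in Unt and higher in D_MgHCF than in DOX (2.63, adjusted p = 5.57e-05), or 2.65 without D_MgHCF replicate 3. Mlxip relative to Mlx was 0.441 ± 0.0205 in Unt, 0.267 ± 0.0818 in DOX, 0.371 ± 0.0164 in D_DXZ and 0.853 ± 0.278 in D_MgHCF. Pvt1, the long noncoding RNA next to Myc on chromosome 15, was lower in D_MgHCF (5.07 ± 0.855 FPKM) than in Unt (8.94 ± 0.722, log2FC −0.72, adjusted p = 0.00155), DOX (13.4 ± 1.39, log2FC −1.26, adjusted p = 2.44e-05) and D_DXZ (12.0 ± 1.34, log2FC −1.10, adjusted p = 6.46e-05). It was called higher in DOX than in Unt (log2FC 0.54, adjusted p = 0.0055). Its sign turned under TPM and over the summed reads, where it was called lower (adjusted p = 0.00305 and 0.0489 with limma). Under TPM the calls on Pvt1 in D_MgHCF against DOX (log2FC −0.17, adjusted p = 0.362) and against D_DXZ (log2FC −0.18, adjusted p = 0.345) were lost. Pvt1 without D_MgHCF replicate 3 was at −0.83 against Unt, −1.37 against DOX and −1.22 against D_DXZ.

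Across the 12 libraries, which fall into 4 groups and share their scaling, Pearson correlations of log2(FPKM + 1) describe which genes varied alike. Within the network Max and Mga were at 0.91, Myc and Mga at 0.87, Myc and Mnt at 0.85, Myc and Max at 0.79, and Mxd1 and Mxd3 at 0.83. Among 11517 genes with a mean of at least 1 FPKM, the 3 most like Myc were Ciart (0.992), Zbed3 (0.989) and Efna5 (0.988), and those most like Max were Pik3cb (0.996), Sp1 (0.996) and Crk (0.994). Mga varied most like Creb1 (0.992), Pafah1b1 (0.991) and Kif2a (0.988). Mxd1 varied most like Frat2 (0.988), Nemp1 (0.987) and Bcl2l11 (0.981), Mxd4 like Spns1 (0.968), Carhsp1 (0.964) and Gna11 (0.962), and Mxi1 like Plcd1 (0.963), Rdm1 (0.960) and Sat2 (0.960). For Mnt they were Wipf2 (0.949), Taok2 (0.938) and Slx4ip (0.927), and for Mlx Zbp1 (0.961), Tbc1d16 (0.955) and Helz2 (0.955).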

How the data were processed

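The RNA of 12 libraries (4 groups of 3) was sequenced from poly(A) selected, NEBNext prepared material. The authors deposited FPKM values per gene with mouse Ensembl identifiers and GRCm38 coordinates, and the submitters' processing notes name HISAT2 2.0.5 and GRCm38/mm10. The counting program, its strand setting, the annotation release and the doses are not given in the sources used here. FPKM multiplied by gene length gave whole reads within a tolerance of 0.1 reads for all values at low read counts, where this was checked. Values at higher read counts were rounded to whole reads without that check. Totals per library follow from these reads. Limits at 3 reads cover counting error only.

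Differences of log2(FPKM + 1) were tested with limma 3.58.1 in R 4.3.3 (trend), in 1 fit over the 4 groups without covariates, for the 25044 genes that had an FPKM above 0 in 3 or more libraries. Calls required a Benjamini-Hochberg adjusted p under 0.05 over all of them, for 6 comparisons. The scripts were tested on simulated data. The members, gene lists, markers and tests were chosen with earlier results of these data known. Each list is described by its counts and median, with no set test. The genes named from a list are up to 4 with the largest log2FC among those called at a mean FPKM of at least 1, plus Pvt1, Txnip, Arrdc4, Odc1, Ncl and Cdkn1a. Listed names that matched no gene or more than 1 were not used here, and some genes that the naming rule picks are not reported here. Transcripts that share sequence were found by BLAST 2.17.0 (at least 95% identity over at least 150 bases).

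The alternatives tried were no filter, a filter on FPKM under 1, a pseudocount of 0.1, unadjusted p, adjusted p with a 2-fold minimum, the 2 groups alone, a replicate block, TPM, quantile normalization, voom on the recovered reads and each library left out. FPKM over the summed reads was chosen after seeing the data.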

Additional observations from a re-analysis of the deposited data

How the results depend on the processing

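Of 1104 repeats of the member comparisons (Mycn left aside) under 23 alternatives, 984 kept direction and side of the threshold, 55 gained a call, 43 lost one and 22 changed sign. The D_MgHCF library that stood apart, the mouse annotation of cells described as rat, and 3 libraries a group limit these values, and how reads were assigned to genes was not tested.

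The number of members called in DOX vs Unt (5) was 3 with a 2-fold minimum. In D_DXZ vs Unt (3) it was 6 over the summed reads, 7 under TPM, 5 with a filter at FPKM of at least 1, 5 in a fit of these groups alone and 6 at unadjusted p. In D_MgHCF vs Unt (5) it was 3 without a filter and 2 with a 2-fold minimum. In D_DXZ vs DOX (0) it was 3 at unadjusted p. In D_MgHCF vs DOX (5) it was 8 over the summed reads, 8 under TPM, 2 in a fit of these groups alone and 3 with a 2-fold minimum. In D_MgHCF vs D_DXZ (4) it was 8 over the summed reads, 8 under TPM and 1 with a 2-fold minimum. With each library left out in turn the counts ranged, in the same order of comparisons, from 4 to 6, 3 to 7, 4 to 6, 0 to 0, 4 to 5 and 3 to 5, and the 7 came without D_MgHCF replicate 3. The causes were not tested. Except for D_DXZ vs DOX at unadjusted p, the shares of all genes called under these alternatives are not given here.

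The labels give the groups the same replicate numbers but do not say that these pair the libraries. Correlations of same-numbered deviations ranged from −0.314 to 0.306, and between DOX and D_DXZ they were 0.306, 0.0334 and 0.22. They do not settle whether the numbers pair the libraries. Myc fell from replicate 1 to replicate 3 in each treated group, while Max and Mga fell so in DOX and D_DXZ and rose in D_MgHCF. With a replicate block the members called numbered 5, 3, 5, 0, 5 and 4 in that order, as without it, and it changed no call on a member.

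Signs changed as follows in log2FC, first over the summed reads and then under TPM. In DOX vs Unt they were −0.32 and −0.61 for Mxd1, −0.42 and −0.81 for Mxd4, −0.54 and −0.92 for Mxi1, −0.022 and −0.054 for Mycl, −0.33 and −0.71 for Pvt1, −0.60 and −1.01 for Odc1 (−0.93 under quantile normalization), −0.44 and −0.82 for Cdkn1a, and −0.28 under TPM alone for Mxd3. In D_DXZ vs Unt they were −0.36 and −0.76 for Mxd4, −0.57 and −0.96 for Mxi1, −0.35 and −0.72 for Mxd3, −0.31 and −0.70 for Pvt1, −0.46 and −0.88 for Odc1 (−0.76 under quantile normalization), and −0.16 under TPM alone for Mxd1. In D_DXZ vs DOX they were 0.059 and 0.048 for Mxd4, 0.0195 and 0.00943 for Pvt1, 0.025 and 0.013 for Txnip, 0.045 and 0.035 for Ncl (0.12 under quantile normalization), 0.14 and 0.13 for Odc1 (0.17 under quantile normalization), and 0.00039 over the summed reads for Mlx. Odc1 was at 0.14 under TPM and 0.025 under quantile normalization in D_MgHCF vs DOX, and 0.0086 under TPM in D_MgHCF vs D_DXZ. Under quantile normalization alone, Mnt was at 0.054 in D_DXZ vs Unt, −0.10 in D_MgHCF vs DOX and −0.23 in D_MgHCF vs D_DXZ, Mga at −0.25 in D_MgHCF vs D_DXZ, and Mlxipl at −0.011 in D_MgHCF vs DOX.

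Leaving out each library in turn gave log2FC from −0.067 to 0.35 for Mxd4 in D_MgHCF vs DOX (below 0 without D_MgHCF replicate 3), −0.017 to 0.11 for Mnt and −0.025 to 0.27 for Mga in D_MgHCF vs D_DXZ, −0.025 to 0.084 for Mycl, −0.0035 to 0.046 for Mlxipl and −0.10 to 0.76 for Cdkn1a in DOX vs Unt, −0.0035 to 0.020 for Mlxipl in D_DXZ vs Unt, and −0.0332 to 0.016 for Mlxipl, −0.46 to 0.24 for Txnip and −0.15 to 0.029 for Odc1 in D_DXZ vs DOX. These differences were not called as deposited.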
